A study of Mus musculus with 12 samples.

Results

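The response of the liver to 24 h of starvation was examined as the change that wild-type mice and mice with a liver knock-out had in common. All 12 of the 12 arrays of the study were used. For each gene the starved minus fed difference was taken in the wild-type (WT) mice and in the knock-out (KO) mice, and the mean of the 2 differences is called the shared effect. A gene was called shared when the adjusted p of this mean was under 0.05 and the differences of both genotypes had the same sign. Each of the 4 combinations of genotype and feeding had 3 mice, with 1 array per mouse. Fed mice ate standard chow, and starved mice had water only for 24 h before the liver was taken. The KO mice combined an Albumin-Cre transgene on a C57BL/6 background, which is active in hepatocytes, with a Lamp2 gene in which loxP sequences flank the last exon of its A isoform; other cells of the liver keep that exon, and the breeding began with several lines. The protein LAMP2 sits in the lysosomal membrane, where its isoform A takes up proteins for chaperone-mediated autophagy. Whether the WT mice carried loxP sites or Cre, and the age and sex of the mice, are not given in the labels.

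A fasting liver changes from storing fuel to releasing it. Falling insulin and rising glucagon and glucocorticoids switch off the lipogenic and sterol programme driven by SREBP transcription factors, and free the FOXO factors and the coactivator PGC-1 alpha to raise glucose output. Fatty acids arriving from fat tissue activate PPAR-alpha, the nuclear receptor that induces genes of fatty acid uptake, oxidation and ketone production. Macroautophagy, which encloses cell parts in vesicles, and later chaperone-mediated autophagy supply amino acids from the cell's own proteins.

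All levels are on the log2 scale as deposited, where a step of 1 means a 2-fold change, and a level describes 1 gene across mice, never 1 gene against another. The arrays were normalized together, so a change is relative to the other genes, although their spreads still differed; over all 20719 genes tested the median shared effect was -0.0189. In bulk liver, fewer cells of a type and less RNA per cell cannot be told apart. Nothing in the labels shows whether the mice of a group came from separate litters or cages. Lamp2 itself, read by 1 gene-level value whose exons are not given in the sources used here, measured 12.61, 12.24 and 12.25 in fed WT livers, 12.68, 12.49 and 12.54 in starved WT livers, 12.51, 12.81 and 12.49 in fed KO livers and 12.33, 12.56 and 12.60 in starved KO livers. These values overlap in all 4 groups (shared effect 0.05, SE 0.10, adjusted p = 0.86), and they check neither the deletion nor the labels.

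Some arrays stood apart, and this touches every result below. WT starved replicate 3, whose title lacks the letter that the other starved mice have, had the narrowest spread of values (interquartile range 2.47, against 2.61 to 2.97 in the other arrays) and lay nearest to the WT fed mean among the 3 WT starved mice in 65.0% of the 1069 shared genes. The median shift of its shared genes from the fed mean was 0.514, against 0.689 and 0.823 in the other WT starved mice and 0.613 to 0.617 in starved KO livers. Among fed mice, WT replicate F1 and KO replicate F6 lay nearest to the starved mean in 50.1% and 51.9% of these genes, and both had wide arrays (2.89 and 2.96). Of the 6 arrays with the wider spread 4 came from starved mice, so spread and feeding were not fully crossed. The only fed mice among these 6 were WT F1 and KO F6. The only starved mice among the 6 narrow arrays were WT replicate 3 and KO S5. Fits within 6 arrays gave both genotypes a common starvation effect. Spread, the number of mice and these individual mice cannot be told apart in such fits. Counts are therefore also given without WT starved replicate 3, without replicates 3 and F1 together, and within the 6 wide and the 6 narrow arrays where they differ by over 1.5 times. Replicates 3 and F1 were left out because they correlated least with their own groups (median r 0.978 and 0.979, against 0.981 for KO F6). That choice itself lowers the spread within groups, so more calls in this fit are no separate result. Both are WT mice, so the fit holds fewer WT than KO mice.

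In total 1069 genes were shared, of which 480 rose and 589 fell. They are 5.16% of all genes tested, 2.32% called higher and 2.84% called lower. Of the shared genes 609 changed at least 1.5-fold, 242 at least 2-fold (128 higher, 114 lower) and 44 at least 4-fold (28 higher, 16 lower). In 787 of them the 3 starved values lay apart from the 3 fed values in each genotype, which holds for 5.4% of all genes. The rule used the same values, so these counts only describe the members. The 14 largest rises and falls named below were chosen among these 787 genes. Their lack of overlap within a genotype is therefore no separate result, whereas separation over all 12 mice was not required. Without WT starved replicate 3 the test called 1608 genes, and without replicates 3 and F1 2790. In these fits rises outnumbered falls, with 839 higher and 769 lower in the former and 1591 higher and 1199 lower in the latter. The balance of directions thus depended on these arrays. List counts from fits with more calls are to be read against such totals over all 20719 genes. With array spread above or below the median as a block the test called 2235 genes, 980 higher and 1255 lower. In the 6 narrow arrays alone it called 627.

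**Figure D1:**
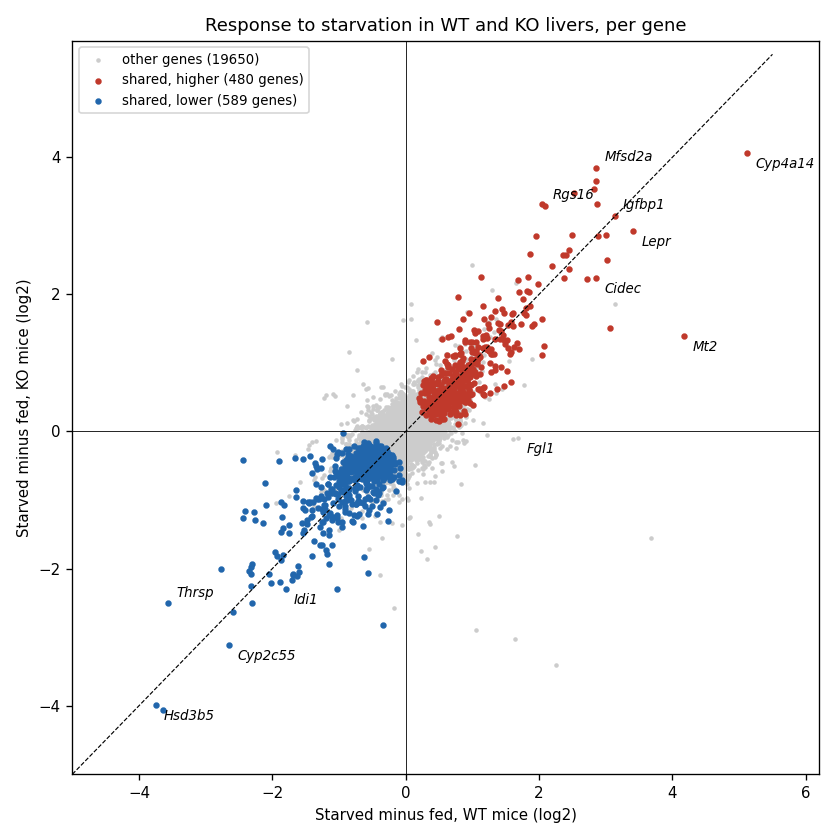
Each point is a gene, with its starved minus fed log2 difference in WT mice on the x axis and in KO mice on the y axis (n = 3 mice per group). Red points are the 480 shared genes that rose, blue points the 589 that fell and grey points all other genes; the dashed line marks equal differences. Cyp4a14 lies farthest to the upper right and Hsd3b5 to the lower left, while Fgl1 and Mt2 lie below the line.

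Genes of fatty acid use rose together. Of 39 measured PPAR-alpha targets 24 rose and 1 fell, with a median shared effect of 1.01 against -0.0189 over all genes. Cyp4a14, a fatty acid omega-hydroxylase, measured 9.40, 7.86 and 8.84 in fed WT livers, 13.91, 13.95 and 13.58 in starved WT livers, 10.68, 9.86 and 9.15 in fed KO livers and 13.84, 14.02 and 14.01 in starved KO livers. Every starved mouse was above every fed mouse, and the starved mice varied less among themselves than the fed mice did. Cyp4a14 rose 24.0-fold (shared effect 4.59, SE 0.28, adjusted p = 1.7e-05), by 5.11 in WT and 4.06 in KO mice. Its relatives Cyp4a31 and Cyp4a10 rose by 3.10 (SE 0.20) and 2.69 (SE 0.16). The acyl-CoA thioesterases Acot3, Acot1, Acot2 and Acot4, which release free fatty acids from coenzyme A, rose by 3.00, 2.68, 2.54 and 1.69. Members of each of these families have similar sequences, so their probes may read each other's transcripts, which was not tested. Cyp4a12a, a member of the first family that is expressed in a male-biased way, was the target that fell (-0.67, SE 0.15, adjusted p = 0.021).

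Fgf21, the hepatic fasting hormone, had a response with little spread within groups, measuring 6.06, 6.08 and 5.91 in fed WT livers, 7.32, 6.94 and 6.73 in starved WT livers, 5.75, 6.05 and 6.16 in fed KO livers and 6.97, 7.36 and 7.27 in starved KO livers. The fed and starved values did not overlap, and the shared effect was 1.10 (SE 0.12, adjusted p = 0.00048). Angptl4, the secreted inhibitor of lipoprotein lipase, rose by 1.66 (SE 0.21, adjusted p = 0.0013), by nearly the same size in WT (1.61) and KO (1.72) mice. Vnn1, a pantetheinase of the vitamin B5 cycle, rose by 2.30 but with a wide error (SE 0.49, adjusted p = 0.02). Retsat, a retinol saturase, rose by 1.85 (SE 0.27) and Txnip, an arrestin-like protein that restrains glucose uptake, by 1.44 (SE 0.15).

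Mitochondrial fatty acid oxidation moved one way: of 27 genes 13 rose and 0 fell (median 0.613). Cpt1a, the carnitine palmitoyltransferase that admits long-chain fatty acids to mitochondria, measured 11.38, 9.89 and 10.33 in fed WT livers, 12.95, 12.66 and 11.33 in starved WT livers, 10.19, 11.39 and 9.95 in fed KO livers and 11.76, 12.32 and 12.62 in starved KO livers. The groups overlapped in WT mice, where WT fed replicate F1 was above WT starved replicate 3, and lay apart in KO mice. Over both genotypes Cpt1a rose 3.37-fold (shared effect 1.75, SE 0.36, adjusted p = 0.016), although it was called in neither genotype alone (adjusted p = 0.13 in WT and 0.18 in KO mice). Slc22a5, the carnitine importer, rose by 1.94 (SE 0.30), Hadhb, a subunit of the trifunctional protein, by 1.04 (SE 0.17), and Acadm, the medium-chain dehydrogenase, by 0.94 (SE 0.19). Without replicates 3 and F1, 21 of the 27 genes were called higher, as were 1591 of all 20719 genes.

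In peroxisomes, which shorten very long fatty acids, 9 of 25 genes rose and 1 fell (median 0.523). Ehhadh, the bifunctional enzyme of this pathway, measured 12.09, 10.06 and 11.07 in fed WT livers, 13.29, 13.61 and 11.39 in starved WT livers, 10.97, 11.21 and 10.62 in fed KO livers and 12.88, 13.27 and 13.28 in starved KO livers. As with Cpt1a, the WT groups overlapped through the fed replicate F1 and the starved replicate 3, and the KO groups did not (shared effect 1.95, SE 0.39, adjusted p = 0.015). Pex11a, which drives peroxisome division, rose by 1.16. Nudt7, a peroxisomal hydrolase that degrades coenzyme A, went the other way and fell by 1.49 (SE 0.14, adjusted p = 0.00023), with every starved mouse below every fed mouse. The number of peroxisomal genes called higher was 17 without replicates 3 and F1, and 4 in the narrow arrays.

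**Figure D2:**
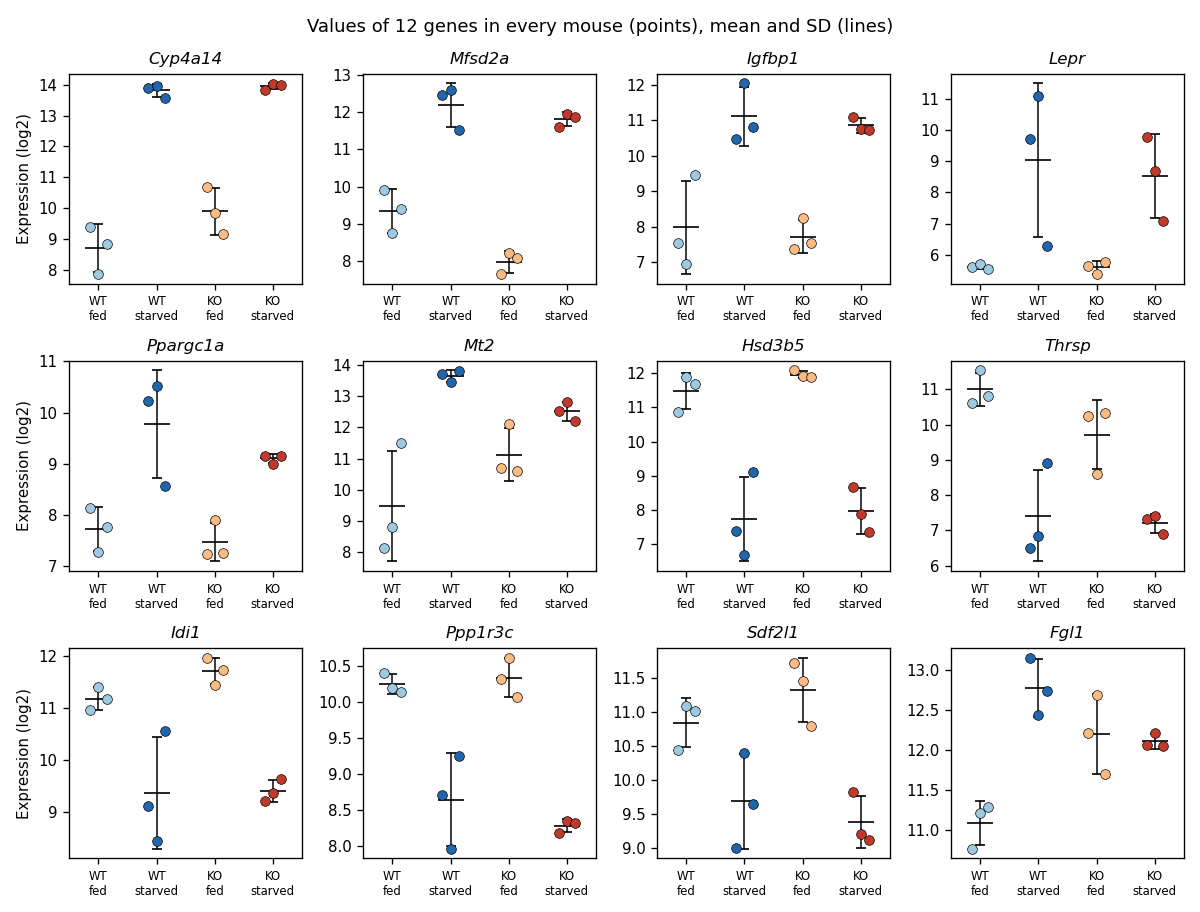
Log2 expression (y axis) of 12 genes in every mouse; points are mice, long lines the group means and error bars the SD (n = 3). The starved mice lie above the fed mice of their genotype for Cyp4a14, Mfsd2a, Igfbp1, Lepr, Ppargc1a and Mt2 and below for Hsd3b5, Thrsp, Idi1, Ppp1r3c and Sdf2l1, while Fgl1 is higher in the starved than in the fed WT mice and overlaps in KO mice.

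Lipid droplet proteins and lipases rose in 6 of 24 cases, and 1 fell (median 0.177). Cidec, which enlarges lipid droplets, measured 6.51, 7.02 and 6.60 in fed WT livers, 10.51, 10.28 and 7.89 in starved WT livers, 6.67, 6.78 and 6.58 in fed KO livers and 9.10, 8.64 and 8.98 in starved KO livers. All starved mice were above all fed mice, replicate 3 being the lowest of them (shared effect 2.54, SE 0.37, adjusted p = 0.0026). Plin5, a droplet coat protein that tethers mitochondria, rose by 1.34 (SE 0.11), by 1.34 in each genotype. Pnpla2, the adipose triglyceride lipase, rose by 1.71 (SE 0.22), and Ces1e, a carboxylesterase, fell by 0.68. Plin2, the main coat protein of hepatocyte droplets, had a shared effect of 0.94 that was not called (SE 0.28, adjusted p = 0.091). Plin4 (0.93) and Fitm2 (0.73) were called with all arrays but lost the call when any of 2 and 9 single arrays was left out. In the narrow arrays 3 genes of the list were called higher.

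Among 30 apolipoproteins and lipoprotein genes 5 rose and 1 fell (median 0.119). Mfsd2a, a transporter of lysophospholipids that carry long polyunsaturated fatty acids, had the largest shared rise after Cyp4a14 among the named genes. It measured 9.92, 8.74 and 9.39 in fed WT livers, 12.48, 12.60 and 11.53 in starved WT livers, 7.64, 8.21 and 8.07 in fed KO livers and 11.61, 11.96 and 11.87 in starved KO livers. No fed value reached a starved one, and the KO fed mice lay below the WT fed mice. Mfsd2a rose 10.2-fold (shared effect 3.35, SE 0.23, adjusted p = 2.7e-05), by 2.86 in WT and 3.84 in KO mice, a difference of 0.99 whose adjusted p over all genes did not pass. Apoa4, an apolipoprotein of triglyceride-rich particles, rose 6.78-fold (2.76, SE 0.25). Lipg, the endothelial lipase, rose by 1.15. The gene listed as Gm6484, whose current symbol is Angptl8, encodes a protein of the fed state and fell by 1.88 (SE 0.27, adjusted p = 0.0028).

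Cholesterol synthesis and uptake fell more widely than any other pathway list with over 10 genes: 19 of 28 genes fell and 2 rose, with a median of -1.07. Idi1, the isopentenyl diphosphate isomerase, measured 10.96, 11.39 and 11.17 in fed WT livers, 9.13, 8.44 and 10.55 in starved WT livers, 11.95, 11.44 and 11.73 in fed KO livers and 9.20, 9.37 and 9.64 in starved KO livers. All 6 starved mice were below all 6 fed mice, with replicate 3 the closest to them, and Idi1 fell 4.15-fold (-2.05, SE 0.28, adjusted p = 0.002). The squalene epoxidase Sqle fell by 2.04 (SE 0.39), the farnesyl diphosphate synthase Fdps by 1.94 (SE 0.25), and the sterol dehydrogenase Nsdhl by 1.79 (SE 0.28). Mvd, the mevalonate decarboxylase, had the smallest error among the list's genes that fell. Its values were 8.31, 8.29 and 8.17 in fed WT livers, 6.85, 7.11 and 7.48 in starved WT livers, 8.65, 8.29 and 8.47 in fed KO livers and 7.09, 7.30 and 7.16 in starved KO livers (-1.20, SE 0.11, adjusted p = 0.00019).

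The sensors of the sterol pathway split. Insig1, the SREBP-induced protein that holds SREBP in the endoplasmic reticulum, fell by 1.86 (SE 0.28), whereas Insig2, its fasting-induced relative, rose by 0.53 (SE 0.10, adjusted p = 0.014), with a difference of 0.53 in each genotype. Mylip, a ubiquitin ligase induced by sterols, rose by 0.55 (SE 0.12). The transcription factor Srebf2 was not called (-0.27, SE 0.16, adjusted p = 0.42). Hmgcs1, the cytosolic synthase, missed the threshold narrowly (-1.21, SE 0.32, adjusted p = 0.0504). In the 6 narrow arrays 12 genes of the list were called lower, and in the 6 wide arrays 21.

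The promoters of sterol genes that fell together are shown for a letter pattern found in most of this list and of some others. The windows searched span each RefSeq start (GRCm38.p6) and lie mostly upstream of it; 100 bases of each are printed 5′ to 3′ on the gene's strand. Capitals mark the CCAAT box, the 5 letters CCAAT or their reverse complement ATTGG, which in many genes is bound by the factor NF-Y.
Idi1, chr13:8885529-8885628, plus strand: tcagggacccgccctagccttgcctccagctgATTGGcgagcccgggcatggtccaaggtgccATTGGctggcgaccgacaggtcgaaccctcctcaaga
Mvd, chr8:122443414-122443513, minus strand: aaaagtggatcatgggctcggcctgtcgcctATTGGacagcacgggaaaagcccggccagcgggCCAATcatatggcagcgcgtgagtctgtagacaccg
Nsdhl, chrX:72918460-72918559, plus strand: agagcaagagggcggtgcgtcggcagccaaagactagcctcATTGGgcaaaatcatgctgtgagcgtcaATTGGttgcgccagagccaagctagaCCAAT
A CCAAT box on either strand was found in 17 of the 19 cholesterol genes with a promoter entry (89.5%), against 42.3% of all 14385 tested genes with one, and at least 2 boxes in 10 of the 19 (52.6%) against 14.5%. The box was also frequent in the promoters of the lists of endoplasmic reticulum chaperones (84.6%), cell cycle genes (75%) and clock genes (70.6%). Among the shared genes the share was 55.6% of those that fell and 44.4% of those that rose. The sterol element TCACCCCAC was found in 0.695% of all promoters and, within the list, in Hmgcs1. Motifs were searched independently of each other, so matches may overlap, and a match describes letters and not binding.

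In fatty acid and triglyceride synthesis 11 of 32 genes fell and 3 rose (median -0.265). Enzymes that make fatty acids were among those that fell, and the 3 that rose assemble glycerides. Not every enzyme of either kind was called. Thrsp, a nuclear protein that promotes lipogenesis, measured 10.62, 11.54 and 10.82 in fed WT livers, 6.50, 6.86 and 8.91 in starved WT livers, 10.23, 8.59 and 10.33 in fed KO livers and 7.33, 7.40 and 6.90 in starved KO livers. The groups lay apart in each genotype, but KO fed replicate F6 was below WT starved replicate 3 (-3.04, SE 0.42, adjusted p = 0.002). Srebf1, the master regulator of lipogenesis, measured 9.83, 9.04 and 9.13 in fed WT livers, 7.67, 7.16 and 7.94 in starved WT livers, 8.78, 9.12 and 8.90 in fed KO livers and 7.10, 7.81 and 7.46 in starved KO livers. It fell 3.05-fold with no overlap between fed and starved mice (-1.61, SE 0.18, adjusted p = 0.00062). The acetyl-CoA-producing enzymes Acly and Acss2 fell by 1.14 and 0.90, the acetoacetyl-CoA synthetase Aacs by 1.56 and the fatty acid synthase Fasn by 1.25 (SE 0.28). The desaturase Scd1 fell by 1.45 (SE 0.31, adjusted p = 0.02), with overlapping values in KO mice. The members that rose were Lpin2, a phosphatidate phosphatase (1.34), Mogat1, a monoacylglycerol acyltransferase (0.96), and Dgat1, which makes the final triglyceride bond (0.78, SE 0.12). Acaca (-0.31) and Elovl6 (-0.42), which make malonyl-CoA and lengthen palmitate, were not called. With array spread above or below the median as a block 18 genes of the list were called lower, as were 1255 of all 20719 genes.

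Of 21 genes of gluconeogenesis and pyruvate handling 8 rose and 0 fell (median 0.54). Ppargc1a, which encodes PGC-1 alpha, measured 8.14, 7.28 and 7.77 in fed WT livers, 10.23, 10.52 and 8.56 in starved WT livers, 7.24, 7.91 and 7.27 in fed KO livers and 9.16, 9.00 and 9.16 in starved KO livers. All starved mice exceeded all fed mice, the KO starved mice within a narrow range (1.84, SE 0.30, adjusted p = 0.0049). Pdk4, the kinase that shuts off pyruvate dehydrogenase, rose by 1.42 (SE 0.32), and Slc37a4, which carries glucose 6-phosphate into the endoplasmic reticulum, by 1.22 (SE 0.20). G6pc, the phosphatase that releases glucose, rose by 0.71 (SE 0.16, adjusted p = 0.025), a call that was lost when any of 7 single arrays was left out. Pck1, the classical gluconeogenic enzyme, had a shared effect of 1.33 and missed the threshold (SE 0.35, adjusted p = 0.0501). Its fed values reached 12.70 in WT replicate F1 and 12.61 in KO replicate F6, against 10.93 to 12.16 in the other fed mice. The count of genes called higher was 15 without replicates 3 and F1, and 5 in the wide arrays.

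Glycolysis and glycogen genes were mostly not called, with 1 of 24 higher and 3 lower (median 0.0773). Ppp1r3c, a scaffold that brings a phosphatase to glycogen, measured 10.40, 10.19 and 10.14 in fed WT livers, 8.71, 7.97 and 9.26 in starved WT livers, 10.32, 10.61 and 10.07 in fed KO livers and 8.19, 8.36 and 8.32 in starved KO livers. No starved value reached a fed one, and Ppp1r3c fell 3.54-fold (-1.82, SE 0.18, adjusted p = 0.00032). Its relative Ppp1r3b fell by 0.91 (SE 0.21). Gys2, the liver glycogen synthase, rose by 1.43 (SE 0.34, adjusted p = 0.034). The calls of Ppp1r3b and Gys2 were lost when any of 6 and 9 single arrays was left out, respectively. Pklr, the liver pyruvate kinase, was at 0.02 (SE 0.29).

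All called hormone-response genes rose. They were 16% of insulin and FOXO genes and 24% of glucocorticoid targets, against 2.32% of all genes called higher. In the list of insulin signalling and FOXO targets 4 of 25 rose and 0 fell (median 0.365). Igfbp1, an insulin-repressed binding protein of insulin-like growth factors, measured 7.53, 6.94 and 9.46 in fed WT livers, 10.47, 12.04 and 10.82 in starved WT livers, 7.37, 8.24 and 7.53 in fed KO livers and 11.10, 10.76 and 10.72 in starved KO livers. WT fed replicate F4 was the highest fed mouse and still below all starved mice. Igfbp1 rose 8.82-fold (3.14, SE 0.40, adjusted p = 0.0013), by 3.14 in WT and 3.15 in KO mice. Gadd45b, a stress-induced regulator of MAP kinases, rose by 2.06 (SE 0.23), while Irs2, the insulin receptor substrate that fasting is known to raise, measured 0.42 and was not called (SE 0.19, adjusted p = 0.27). Of 25 glucocorticoid targets 6 rose and 0 fell (median 0.543). Fkbp5, a chaperone of the glucocorticoid receptor, rose by 1.55 (SE 0.29, adjusted p = 0.01). The targets that rose included Mt1, Mt2, Per1 and Angptl4, which are also described with the metal, clock and fatty acid genes. The share of this list is therefore not separate from theirs. Tsc22d3, another target, was not called (-0.20, adjusted p = 0.39), with differences of -0.68 in WT and 0.28 in KO mice.

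Amino acid catabolism and the urea cycle showed 10 of 44 genes higher and 3 lower (median 0.232). The transaminases Got1 and Gpt2 rose by 1.40 (SE 0.24) and 1.27 (SE 0.21). Asl, the argininosuccinate lyase of the urea cycle, rose by 1.29 (SE 0.15, adjusted p = 0.00078) with all starved mice above all fed mice, and Aass, which starts lysine breakdown, by 1.03 (SE 0.22). The members that fell were Haao of tryptophan breakdown (-0.57), Otc (-0.39) and Nags (-0.33) of the urea cycle. Among 39 solute carriers of fuels and amino acids 8 rose and 1 fell (median 0.345). Slc16a5, a monocarboxylate transporter family member, measured 7.27, 6.47 and 7.62 in fed WT livers, 10.40, 10.56 and 8.86 in starved WT livers, 6.15, 6.29 and 6.19 in fed KO livers and 9.87, 9.51 and 9.85 in starved KO livers. The fed and starved mice did not overlap, and it rose 9.04-fold (3.18, SE 0.28, adjusted p = 0.00015). Slc25a47, a liver mitochondrial carrier, rose by 1.75 with an SE of 0.11 (adjusted p = 2e-05). Slc1a4, an importer of neutral amino acids, fell by 0.70. In the narrow arrays 5 genes of amino acid catabolism were called higher and 0 lower.

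Clock genes moved in opposite directions: 7 of 23 rose and 3 fell (median 0.451). Per1, a repressor of the clock that glucocorticoids and feeding signals also induce, measured 7.57, 6.84 and 6.83 in fed WT livers, 8.35, 9.08 and 8.04 in starved WT livers, 6.47, 6.86 and 6.34 in fed KO livers and 8.03, 8.34 and 8.02 in starved KO livers. Nr1d2, which encodes the repressor REV-ERB beta, rose by 1.45 (SE 0.16, adjusted p = 0.00048), by 1.44 in WT and 1.47 in KO mice. The output factor Dbp rose by 1.25 (SE 0.15), and the repressor listed as Gm129, with the current symbol Ciart, by 2.87 (SE 0.36). Npas2, a partner of the clock activator, measured 8.89, 7.75 and 8.03 in fed WT livers, 6.86, 5.96 and 6.96 in starved WT livers, 7.88, 8.80 and 7.53 in fed KO livers and 5.95, 5.99 and 5.93 in starved KO livers. Per1 rose by 1.49 (SE 0.19) and Npas2 fell by 1.87 (SE 0.26), with no overlap between fed and starved mice for either. Arntl, the core activator known as BMAL1, fell by 0.70 (SE 0.11, adjusted p = 0.0044), with differences of -0.35 in WT and -1.05 in KO mice. The hour at which livers were taken is not given in the labels, so clock time and feeding state cannot be told apart. In the 6 wide arrays 2 genes of this list were called higher.

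**Figure D3:**
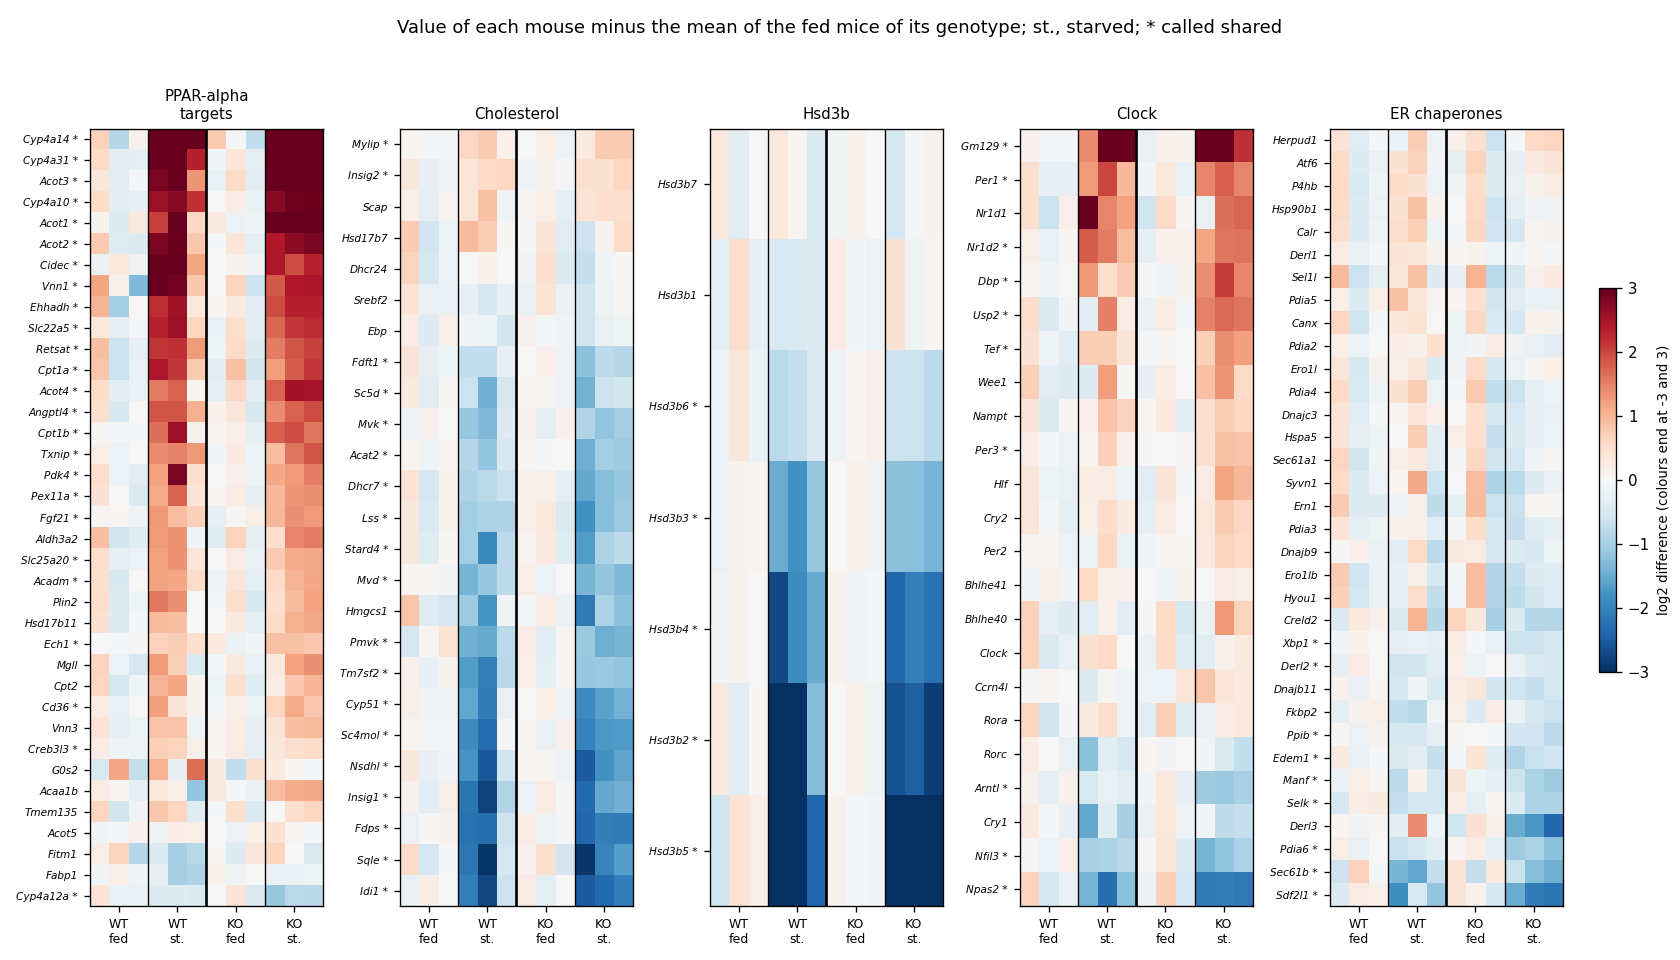
Each column is a mouse and each row a gene of 5 lists; the colour is the log2 difference of that mouse from the mean of the fed mice of its genotype, and an asterisk marks a shared gene; some members of the lists are not shown. Most PPAR-alpha targets are red and most cholesterol genes blue in the starved mice of both genotypes, with the palest colours in the last WT starved column, replicate 3.

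Sex-biased liver genes split by their bias. Of 26 male-biased genes 12 fell and 0 rose (median -0.511), and of 28 female-biased genes 9 rose and 1 fell (median 0.479, with 0.0679 in WT and 0.553 in KO mice). Hsd3b5, a steroid dehydrogenase of male liver, measured 10.87, 11.89 and 11.68 in fed WT livers, 7.39, 6.69 and 9.10 in starved WT livers, 12.09, 11.91 and 11.88 in fed KO livers and 8.66, 7.88 and 7.35 in starved KO livers. All starved mice were far below all fed mice, and Hsd3b5 fell 14.7-fold (-3.87, SE 0.37, adjusted p = 0.00025). In its family of 7 genes 5 fell and 0 rose, the others being Hsd3b2 (-2.61), Hsd3b4 (-2.12), Hsd3b3 (-1.39) and Hsd3b6 (-0.67). Their similar sequences may share probes, and Hsd3b1 (-0.15) and Hsd3b7 (-0.08) were not called. Elovl3, an elongase of very long fatty acids, fell by 2.06 (SE 0.17, adjusted p = 9e-05), and the organic anion transporter Slco1a1 by 1.62 (SE 0.22).

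On the female-biased side, Cyp17a1, the steroid 17-alpha-hydroxylase, measured 8.39, 7.73 and 9.17 in fed WT livers, 10.10, 12.74 and 11.01 in starved WT livers, 7.77, 7.06 and 7.40 in fed KO livers and 11.83, 10.98 and 10.37 in starved KO livers. Its fed and starved values did not overlap (3.25, SE 0.42, adjusted p = 0.0014). The flavin monooxygenase Fmo2 rose by 2.30, and Nipal1, a magnesium transporter family member, by 2.46 (SE 0.24). Cyp4a14, Acot3 and Acot4 of this list are also PPAR-alpha targets. Sult1e1, the estrogen sulfotransferase, ranged from 4.31 to 8.51 in starved mice and was not called (2.50, SE 0.67, adjusted p = 0.058). In the growth hormone and IGF axis, whose pulses set these sex differences, 2 of 18 genes rose and 1 fell (median -0.00346). Igfbp2 rose by 1.41 (SE 0.18), and the receptor Ghr fell by 0.58 (SE 0.13), a call lost when any of 3 single arrays was left out. The sex-linked genes gave 1 call among 5, Eif2s3y (0.31), which was lost without any of 10 single arrays.

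Bile acid genes showed 5 of 27 higher and 2 lower (median 0.168). Cyp8b1, the hydroxylase that sets the share of cholic acid, measured 11.10, 9.86 and 10.09 in fed WT livers, 12.64, 12.59 and 11.28 in starved WT livers, 9.23, 10.22 and 10.08 in fed KO livers and 11.55, 12.04 and 12.07 in starved KO livers. Its fed and starved mice did not overlap (1.93, SE 0.29, adjusted p = 0.0034). Abcb4, which exports phospholipid into bile, rose by 1.59 (SE 0.29). Nr0b2, the repressor SHP of bile acid synthesis, measured 10.07, 10.07 and 9.98 in fed WT livers, 8.72, 8.34 and 9.03 in starved WT livers, 10.34, 10.27 and 10.20 in fed KO livers and 9.69, 9.86 and 9.76 in starved KO livers. All starved mice were below all fed mice, and Nr0b2 fell by 0.93 (SE 0.10, adjusted p = 0.00067), with differences of -1.35 in WT and -0.51 in KO mice. The difference between genotypes of 0.84 had an unadjusted p of 0.0019 and did not pass over all genes. Cyp7a1, the rate-limiting enzyme of bile acid synthesis, measured 1.03 and was not called (SE 0.33, adjusted p = 0.1). In the 6 wide arrays the median of this list was -0.0175.

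Drug-metabolising genes went both ways. Of 31 xenobiotic receptors, cytochrome P450s and their reductase 4 rose and 5 fell (median 0.182). Por, the reductase that feeds electrons to microsomal P450s, measured 10.20, 9.06 and 9.35 in fed WT livers, 11.25, 11.96 and 10.90 in starved WT livers, 8.81, 9.51 and 8.58 in fed KO livers and 10.91, 11.25 and 11.49 in starved KO livers. The fed and starved mice were apart, and Por rose 4.13-fold (2.05, SE 0.24, adjusted p = 0.00091). Nr1i3, the xenobiotic receptor CAR, rose by 1.11 (SE 0.18). Cyp2c55 fell by 2.89 (SE 0.31, adjusted p = 0.00048), Cyp2c70, which makes muricholic acids in mice, by 2.41 (SE 0.47), and Cyp1a2 by 1.33 (SE 0.30). Cyp2c70 in WT starved replicate 3 lay within the range of the fed mice, whereas the other starved mice measured 9.61 to 11.37. Of 30 NRF2 targets and conjugating enzymes 3 rose and 6 fell (median -0.171), among the latter the glutathione transferases Gstm6 (-1.67, SE 0.12), Gstm3 (-1.15) and Gsta4 (-0.97). Nqo1, a quinone reductase, rose by 0.92.

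The zinc-binding metallothioneins Mt1 and Mt2 rose in a list of 27 metal genes in which 2 rose and 4 fell (median -0.0424). Mt2 measured 8.12, 8.81 and 11.48 in fed WT livers, 13.70, 13.44 and 13.80 in starved WT livers, 10.69, 12.09 and 10.59 in fed KO livers and 12.53, 12.82 and 12.20 in starved KO livers. Fed and starved mice did not overlap, although WT fed replicate F4 and KO fed replicate F6 were high among the fed (2.78, SE 0.49, adjusted p = 0.0074). The differences of Mt2 were 4.17 in WT and 1.40 in KO mice. Mt1 rose by 2.29 (SE 0.26, adjusted p = 0.00063), with differences of 3.07 and 1.51. The differences between genotypes had unadjusted p-values of 0.015 and 0.011 and did not pass over all genes. Mt1 and Mt2 are close relatives, and cross-reading by probes was not tested. Hamp2, a hepcidin gene, fell by 1.45 and Slc30a10, a manganese exporter, by 0.90.

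The promoters of the metallothioneins are shown because metal elements, which the zinc sensor MTF1 binds, are repeated in them. In 200 bases of each RefSeq window (GRCm38.p6) capitals mark TGCACNC or TGCGCNC or their reverse complements.
Mt1, chr8:94178939-94179138, plus strand: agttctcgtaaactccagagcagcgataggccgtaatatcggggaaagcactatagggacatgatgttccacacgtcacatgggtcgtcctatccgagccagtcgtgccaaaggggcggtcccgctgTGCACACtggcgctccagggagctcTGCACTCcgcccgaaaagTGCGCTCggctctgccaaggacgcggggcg
Mt2, chr8:94172429-94172628, plus strand: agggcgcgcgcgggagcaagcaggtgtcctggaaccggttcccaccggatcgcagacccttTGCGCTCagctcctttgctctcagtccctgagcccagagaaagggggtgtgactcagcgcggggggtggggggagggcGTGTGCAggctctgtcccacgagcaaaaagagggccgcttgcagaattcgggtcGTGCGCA
The Mt1 window held 3 matches and the Mt2 window 4, of which 3 fall within the printed stretch. At least 1 match was found in 33.9% of all promoters of tested genes and at least 3 in 3.08%.

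Acute phase proteins, made by hepatocytes during inflammation, had 2 of 34 genes higher and 2 lower (median -0.0642), but the medians of the genotypes differed in sign, 0.332 in WT and -0.362 in KO mice. Saa1, a serum amyloid, reached 11.36 in WT starved replicate 3 and was between 4.68 and 8.77 in the other mice. Of the 4 calls, Orm1 (-0.39) and Serpina3n (0.99) were lost without any of 11 and 8 single arrays. Among 27 interferon-stimulated genes 0 rose and 2 fell (median -0.192), Ifit3 (-1.11) and Isg15 (-0.58), with calls lost without any of 10 and 9 single arrays. In the narrow arrays 6 interferon genes were called lower, and in the wide arrays 0. Of 40 complement and coagulation genes 4 fell and 0 rose (median -0.0489). C9, a pore-forming complement protein, fell by 1.00, while the calls of F11, C8b and C8g were each lost without any of 8 or more single arrays.

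Genes of the endoplasmic reticulum folding machinery fell in 9 of 34 cases and rose in 0 (median -0.22). Sdf2l1, a cofactor of the chaperone BiP, measured 10.44, 11.08 and 11.01 in fed WT livers, 9.01, 10.40 and 9.66 in starved WT livers, 11.72, 11.45 and 10.80 in fed KO livers and 9.83, 9.21 and 9.12 in starved KO livers. Its highest starved mouse was just below its lowest fed mouse (-1.54, SE 0.25, adjusted p = 0.0044). Pdia6, a disulfide isomerase, fell by 0.79 (SE 0.11, adjusted p = 0.0024), with differences of -0.50 in WT and -1.08 in KO mice. Xbp1, a transcription factor of the unfolded protein response, fell by 0.42 (SE 0.08). The chaperone Hspa5, or BiP, was not called (-0.07, SE 0.23), and the medians of the list were 0.0122 in WT and -0.363 in KO mice. Without replicates 3 and F1 the list's median was 0.00381, with 9 genes called lower, as were 1199 of all 20719 genes. In the narrow arrays 4 genes were called lower.

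Promoters of Sdf2l1 and Pdia6 are printed beside those of the sterol genes, since the CCAAT box recurs in them too (GRCm38.p6, capitals as before).
Sdf2l1, chr16:17132371-17132470, minus strand: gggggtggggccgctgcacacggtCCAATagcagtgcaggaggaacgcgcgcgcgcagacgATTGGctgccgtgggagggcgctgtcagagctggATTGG
Pdia6, chr12:17266427-17266526, plus strand: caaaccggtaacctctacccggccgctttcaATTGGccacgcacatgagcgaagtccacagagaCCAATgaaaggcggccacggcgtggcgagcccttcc
Of 26 folding genes with a promoter entry 22 held a CCAAT box (84.6%) and 19 held at least 2 (73.1%), against 42.3% and 14.5% of all tested genes. Most of the genes with a box in this list were not called, so the letters were shared by genes that fell and genes that did not pass the test.

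Among degradation pathways 15.8% of macroautophagy and mitophagy, 20.9% of proteasome and 3.77% of lysosome genes were called. The share over all genes was 5.16%. Of 38 genes of macroautophagy and mitophagy 6 rose and 0 fell (median 0.243). Bnip3, a receptor for the removal of mitochondria, measured 11.12, 11.05 and 10.92 in fed WT livers, 11.91, 12.47 and 12.53 in starved WT livers, 10.94, 10.999 and 10.85 in fed KO livers and 12.19, 12.13 and 12.09 in starved KO livers. All starved mice were above all fed mice, replicate 3 the highest of them (1.24, SE 0.10, adjusted p = 0.00011). Map1lc3b, the LC3 protein of the autophagosome membrane, measured 10.78, 10.61 and 10.90 in fed WT livers, 11.53, 11.70 and 11.52 in starved WT livers, 10.81, 10.75 and 10.70 in fed KO livers and 11.33, 11.50 and 11.48 in starved KO livers. It rose by 0.75 (SE 0.07, adjusted p = 0.0003), by 0.82 in WT and 0.69 in KO mice. Optn, a cargo receptor, rose by 0.85 (SE 0.21), Wipi1 by 0.69 and Pink1 by 0.32. The calls of Wipi1 and Pink1 were lost without any of 9 and 3 single arrays. Sqstm1 (0.56) and Ulk1 (0.57) were not called. Without replicates 3 and F1, 14 genes of this list were called higher, as were 1591 of all 20719 genes.

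The lysosome list had 2 of 53 genes higher and 0 lower (median 0.142). Ctsl, the protease cathepsin L, measured 12.45, 11.98 and 12.55 in fed WT livers, 13.20, 13.36 and 13.34 in starved WT livers, 12.11, 12.32 and 12.11 in fed KO livers and 12.71, 12.90 and 12.94 in starved KO livers, and rose by 0.82 (SE 0.10, adjusted p = 0.0012). The call of Idua (0.57) was lost without any of 9 single arrays. Without replicates 3 and F1, 11 genes of the list were called higher, as were 1591 of all 20719 genes. Of 18 genes of chaperone-mediated autophagy 0 were called in either direction by limma (median 0.0307), against 5.16% of all genes; 4 had an unadjusted p under 0.05, which holds for 17.7% of all genes. Without replicates 3 and F1 4 were called higher and 1 lower, against 1591 and 1199 of all 20719 genes. Its cytosolic chaperone Hspa8 measured 0.41 (SE 0.12, adjusted p = 0.089), the same in WT and KO mice.

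Of 43 proteasome genes 8 rose and 1 fell (median 0.262). Psmd9, an assembly chaperone of the regulatory particle, rose by 0.81 (SE 0.08, adjusted p = 0.00029), by 0.86 in WT and 0.76 in KO mice, and Psmd4, its ubiquitin receptor, by 0.64. The member that fell was Psmb10, a catalytic subunit of the immunoproteasome (-0.76, SE 0.15). With array spread above or below the median as a block 20 genes were called higher, but in the 6 narrow arrays 1. Cytosolic ribosomal proteins (45 genes, median -0.0672) and oxidative phosphorylation (43 genes, median -0.109) had 0 calls by limma, with 0 and 4 genes at an unadjusted p under 0.05, against 17.7% of all genes. Among 31 ribosome biogenesis and translation factors 2 rose (median 0.292): Eif4ebp3, a brake on cap-dependent translation, by 2.41 (SE 0.29) and the nucleolar protein Npm1 by 0.63. Without replicates 3 and F1 13 genes of that list were called higher, as were 1591 of all 20719 genes.

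In stress and growth lists 8.33% (heat shock) to 17.9% (ATF4 targets) of the members were called, against 5.16% of all genes. Of 28 ATF4 targets 4 rose and 1 fell (median 0.129), with shared effects from -0.372 to 1.1 in the list. Atf5 was at 0.75 and Sesn2 at 0.68, the latter lost without any of 6 single arrays. The call of Chac1, the member that fell, was lost without any of 9. The heat shock list of 24 genes had 1 higher, Tcp1 (0.50), and 1 lower, Fkbp4 (-0.79), with a median of 0.148; the call of Tcp1 was lost without either of 2 single arrays, KO fed F8 and KO starved S7, and within the 6 wide and the 6 narrow arrays. In the list of 27 immediate early genes 4 rose and 0 fell (median 0.102). Rgs16, a regulator of G protein signalling, measured 7.18, 7.02 and 6.92 in fed WT livers, 9.25, 8.70 and 9.42 in starved WT livers, 7.23, 7.39 and 7.13 in fed KO livers and 9.47, 11.40 and 10.75 in starved KO livers, apart in each genotype and highest in the KO starved mice (2.69, SE 0.26, adjusted p = 0.00029). Of 31 cell cycle genes 3 fell and 0 rose (median -0.147): Ccnd1 (-0.50), E2f1 (-0.50) and Ccnd2 (-0.41), of which Ccnd1 and E2f1 were lost without any of 5 and 9 single arrays.

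Among 38 nuclear receptors and coregulators 3 rose and 3 fell (median 0.144). Ppard, the delta relative of PPAR-alpha, measured 8.92, 8.58 and 8.58 in fed WT livers, 7.48, 7.30 and 7.62 in starved WT livers, 8.36, 8.65 and 8.11 in fed KO livers and 7.20, 7.40 and 7.58 in starved KO livers. It fell by 1.11 with no overlap (SE 0.12, adjusted p = 0.00042), while Ppara itself had 0.86 and was not called. In the list of 23 hepatokines and receptors 3 rose and 2 fell (median 0.0165). Lepr, the leptin receptor, measured 5.60, 5.71 and 5.54 in fed WT livers, 9.70, 11.09 and 6.29 in starved WT livers, 5.65, 5.38 and 5.77 in fed KO livers and 9.77, 8.69 and 7.09 in starved KO livers. The fed mice were uniform and the starved mice ranged widely without overlap (3.16, SE 0.68, adjusted p = 0.021), and the call was lost without any of 5 single arrays.

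**Figure D4:**
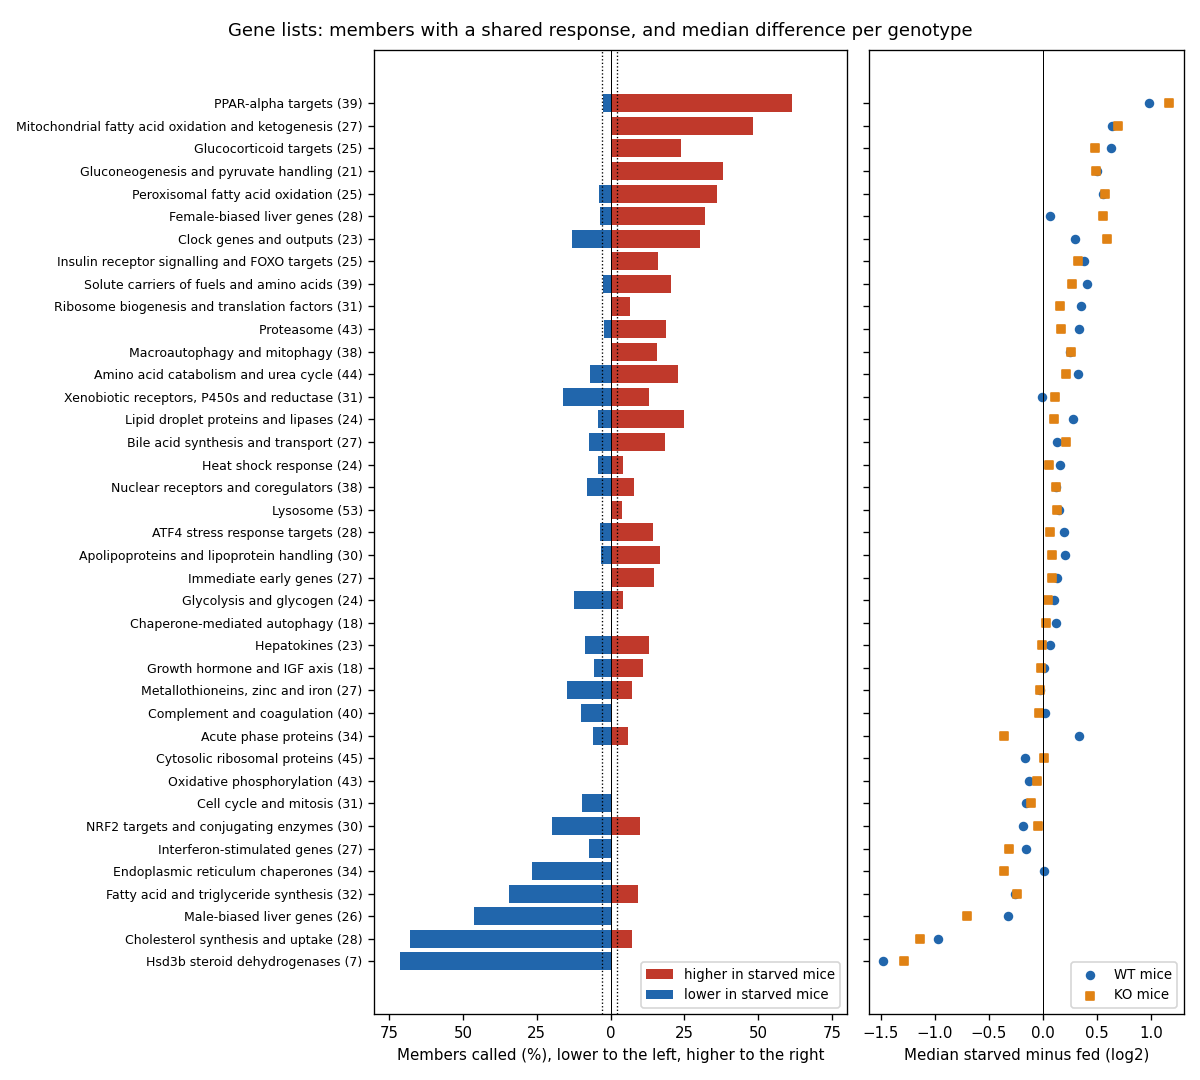
Left, the percentage of measured members of each of 39 gene lists (numbers in brackets) with a shared response, higher to the right and lower to the left; dotted lines mark the 2.32% and 2.84% of all genes. Right, the median starved minus fed log2 difference of each list in WT (circles) and KO mice (squares). The medians lie on opposite sides of 0 for acute phase proteins, for ER chaperones (0.0122 in WT mice) and for several lists with smaller medians. They are negative in both genotypes for cholesterol synthesis and the Hsd3b genes.

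Cell type markers were given the same description, to show what else moved with starvation. Of 12 hepatocyte markers 1 rose and 0 fell (median 0.133), and their summed linear level ranged from 123000 to 159000 over the fed mice and from 140000 to 158000 over the starved mice. The groups overlapped in this sum. Kupffer cell and macrophage markers had 1 of 13 higher (Cd163, 0.56) and 1 lower (Lyz2, -0.79), calls that were lost without any of 9 and 8 single arrays. Their summed level ranged from 11200 to 13700 in WT fed, 7630 to 14800 in WT starved, 10800 to 11700 in KO fed and 9800 to 10700 in KO starved mice. Of 14 stellate cell and fibroblast markers 2 fell, Postn (-1.23), whose call was lost within the 6 wide and the 6 narrow arrays, and Pdgfrb (-0.30), lost without any of 8 single arrays. Of 12 endothelial markers 1 fell, Fcgr2b (-0.54). Of 14 erythroid markers 2 fell, Car1 (-1.78, SE 0.31) and Alas2 (-1.30, SE 0.13), with every starved mouse below every fed mouse of its genotype for both. The list's other 12 members, none of them called, all had shared effects above 0, and its median was 0.123 (-0.00644 in WT and 0.33 in KO mice). Its summed level ranged from 20400 to 23900 in WT fed, 16200 to 22000 in WT starved, 18700 to 24700 in KO fed and 20400 to 31200 in KO starved mice. Fat and pancreas markers had 1 of 12 lower, Cela1 (-0.65), and cholangiocyte, lymphocyte and neutrophil markers had 0 calls by limma. In these last lists 2 of 10, 0 of 13 and 0 of 9 genes had an unadjusted p under 0.05, against 17.7% of all genes. The part of these cells in the gene lists above was not tested.

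WT and KO starvation effects come from separate mice, but both were tested with 1 residual variance per gene over all 12 arrays, so their p-values are not independent and only signs and sizes are compared. Of the 292 genes called in WT mice alone 288 (98.6%) had the same sign in KO mice, against 67.5% of all genes. Of the 212 genes called in KO mice all 212 had the same sign in WT mice. Sizes were smaller in the genotype that did not choose the genes: the median size of the WT genes was 0.973 in WT and 0.763 in KO mice, and that of the KO genes 1.13 in KO and 0.925 in WT mice. The 4 genes that were called in WT mice and turned sign in KO mice were Arl13b, Lcn2, Spc25 and Fgl1. Of these Fgl1, a secreted fibrinogen-like protein, was also called for the mean effect and is the gene set aside by the rule on direction. Fgl1 measured 10.77, 11.21 and 11.29 in fed WT livers, 13.16, 12.44 and 12.74 in starved WT livers, 12.22, 12.69 and 11.70 in fed KO livers and 12.07, 12.22 and 12.05 in starved KO livers. It rose by 1.69 in WT mice and differed by -0.09 in KO mice.

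The test of the difference between the WT and KO responses called 0 of 20719 genes by limma. Of all these genes 422 had an unadjusted p under 0.05, among them 69 of the 1069 shared genes. With array weights the test of the difference called 106 genes. The median SE of this difference was 0.212, against 0.106 for the shared effect, so differences that are small beside it were not detectable with 3 mice a group. Among the 1069 shared genes the response was larger in KO mice for 449 and larger in WT mice for 620, and 395 differed in size by over 1.5 times. Most shared genes, 692, were called in neither genotype alone (315 higher, 377 lower), 118 in both, 166 in WT only and 93 in KO only. The genes called in neither had a median size of 0.555, against 1.3 for those called in both, but 95 of them changed at least 2-fold, Cpt1a, Ehhadh, Pdk4, Scd1 and Lepr among them.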

How the data were processed

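Liver RNA of 12 mice was read on 1 array each. The deposited log2 values were made by the authors with RMA in the oligo package, with limma also listed, per the submitters' processing notes; software versions, the array model and the genome build are not given in the sources used here. RMA normalizes arrays against each other, so a shift of all genes at the same time cannot be seen, but the deposited arrays still differed in spread (interquartile ranges 2.47 to 2.97). Array data hold no read depth; precision depends on how many arrays a group has.

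Both deposited tables held the same 347328 values. Of 28944 rows 5132 had no gene symbol, and for the 1683 symbols with several rows the row with the highest mean was kept, which left 20719 genes. A model with 4 group means was fitted with limma 3.58.1 in R 4.3.3 (lmFit, eBayes), with Benjamini-Hochberg adjustment over all genes and a threshold of 0.05. The median 95% interval of a shared effect reached 0.232 to either side.

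The gene lists (39 pathways and 10 marker lists) and the genes named were chosen with earlier results of these data known. Named genes were the 14 largest shared rises and falls and up to 5 called genes of each list. These largest rises and falls were drawn only from shared genes whose starved and fed values lay apart in each genotype. Predicted genes were passed over. For genes drawn in this way, lack of overlap within a genotype was set by the choice and is not a separate result. Further list members are described by value, called or not. Of the 1059 list genes measured 229 were shared genes (21.6%). Lists were described by counts and medians, without a test. Promoter sequences came from RefSeq (GRCm38.p6). Title numbers were checked as a possible pairing of fed and starved mice. The deviations of same-numbered fed and starved mice correlated at -0.172 in the WT pair and 0.454 and 0.532 in the KO pairs. Not every pair was above 0.1, and the numbers were not taken to pair mice. KO mice with different numbers ranged as widely (0.686 for F6 and S7, 0.66 for F8 and S5, -0.754 for F6 and S5). These correlations therefore could not decide whether mice were paired. Other filters, scalings, models, array weights, array spread and leaving out arrays were tried as alternatives. The values of some genes are not reported here.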

Additional observations from a re-analysis of the deposited data

Results flagged for a closer look

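Probe sets without a gene symbol lay outside the comparisons by gene, and 65 of the 5132 were called for the shared effect when all deposited rows were tested, 43 of them higher and 22 lower in starved mice. Their differences ran from -1.95 to 3.98 on the log2 scale. They were flagged because they carry a starvation signal in rows that the gene lists do not use, and they are not named here.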

How the results depend on the processing

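Against 1070 calls for the shared starvation effect, array weights gave 9499, a 1.5-fold minimum 610, the interquartile range as a covariate 2020, the spread class as a block 1608, arrays of wide spread alone 1615, spread above or below the median as a block 2235, the 6 narrow arrays alone 627, and leaving out WT starved replicate 3 and WT fed replicate F1 together 2790. The spread division at the largest gap set only replicate 3 apart, so a fit of narrow arrays alone could not be made there. The spread class as a block therefore gave the same counts as leaving out replicate 3. The arrays of wide spread alone were likewise the arrays without it, so these 3 settings are not separate alternatives. Leaving out single arrays gave 625 to 1608. In the same order for array weights, spread class, interquartile range, spread above or below the median and both arrays left out, calls in WT mice were 5600, 659, 1132, 1225 and 1671 against 292, and in KO mice 7639, 344, 603, 881 and 421 against 212. Single arrays left out gave 64 to 659 in WT and 45 to 344 in KO mice. The difference between genotypes had 0 calls, 106 with array weights, and 0 to 1 with single arrays left out. The fits with spread above or below the median, with the 6 narrow or wide arrays and with both arrays left out were chosen after seeing the data; of the 1070 calls they kept 1070, 446, 558 and 1026. With the title number as a replicate block the counts were 1090, 300, 224 and 0, and no call was lost for the shared effect. Cyclic loess gave 1306 calls (651 higher, 655 lower) and median centring 1038. Of 154 named genes 83 were called under every alternative and 125 with every single array left out; 0 turned direction. Of 1469 list medians under alternatives 23 moved by more than the spread between mice. The cause of these shifts was not tested.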

Other observations

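Outside the pathway lists lay 840 of the 1069 shared genes, and those that follow were chosen after their values were seen. St3gal5, the sialyltransferase that makes the ganglioside GM3, measured 9.85, 9.59 and 9.71 in fed WT livers, 11.05, 11.93 and 11.46 in starved WT livers, 9.11, 9.82 and 9.43 in fed KO livers and 11.32, 11.42 and 11.42 in starved KO livers. It rose by 1.85 with no overlap between fed and starved mice (SE 0.15, adjusted p = 9.2e-05). Gpcpd1, a phosphodiesterase of glycerophosphocholine, rose by 2.48 (SE 0.14, adjusted p = 1.7e-05). Arrdc4, an arrestin-like relative of Txnip, rose by 1.21 (SE 0.10), its 6 fed mice lying between 7.40 and 7.51 and its starved mice between 8.44 and 8.95. Rbm3, an RNA-binding protein known to be induced by cold, measured 9.99, 10.90 and 10.42 in fed WT livers, 11.73, 11.78 and 12.42 in starved WT livers, 10.38, 9.68 and 10.78 in fed KO livers and 12.10, 11.69 and 11.71 in starved KO livers. All starved mice were above all fed mice (1.55, SE 0.21, adjusted p = 0.002).

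Among the falls outside the lists, Leap2, a liver peptide that blocks the ghrelin receptor, measured 8.47, 9.01 and 8.91 in fed WT livers, 7.25, 6.42 and 8.03 in starved WT livers, 9.07, 8.60 and 9.66 in fed KO livers and 7.93, 7.90 and 7.49 in starved KO livers. The highest starved mouse, WT replicate 3, was below the lowest fed mouse (-1.45, SE 0.26, adjusted p = 0.0081). Hao1, the glycolate oxidase of liver peroxisomes, fell by 1.32, Rdh11, a retinol dehydrogenase, by 1.46, and Hes6, a transcriptional regulator, by 1.74 (SE 0.21).

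Lcn2, an acute phase protein, was called in WT mice (3.68, adjusted p = 0.0093) and had a difference of -1.56 in KO mice, with an unadjusted p of 2e-05 for the difference between genotypes that did not pass over all genes.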
